A study of Aspergillus luchuensis with 6 samples.

Results

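The AP contig is the sequence record of the tag table whose name starts with AP (AP012272.1), and the tag starts described here are its positions, on both strands, with at least 1 tag in any of 6 libraries. There were 11873 such positions, 11839 on the plus strand and 34 on the minus strand, of 3268101 positions with a tag in the whole table. A further 9577 listed positions of the contig were at 0 in every library. The libraries were made by cap analysis of gene expression (CAGE), which reads a short tag from the 5′ end of an RNA, so that each count is the number of tags that start at 1 position of 1 strand. The RNA came from mycelia of Aspergillus luchuensis mut. kawachii, the white koji fungus. The control group held 3 libraries of the strain labelled ctrl345. The disruptant group held 3 libraries with the strain label sirD and the genotype label Δ laeA. LaeA is a nuclear regulator, similar to methyltransferases, that is known in Aspergillus for its effect on secondary metabolism. For all 6 libraries, mycelia were shaken at 30 °C for 36 h in M medium and then for 12 h in CAP medium. Nothing in the labels says whether the numbered libraries came from separate cultures, so p-values measure only the spread between these libraries.

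Neither the labels nor the table say what the AP contig is. Its tag starts ran from position 1 to position 31186, counted from 1. RefSeq's gene table for another assembly of this fungus has a mitochondrial sequence with 44 genes, which are 16 protein-coding genes, 2 rRNA genes and 26 tRNA genes. Whether the AP contig is that sequence was not tested, because no sequence of either was used here, and no tag start was given to a gene. In general, a mitochondrial genome of this kind of fungus carries its genes mostly on 1 strand. It encodes subunits of the respiratory chain (cob for cytochrome b, nad genes for complex I, cox genes for cytochrome c oxidase), subunits of the ATP synthase and its own rRNAs and tRNAs. A dedicated RNA polymerase makes long transcripts that are then cut into pieces, and these RNAs carry no cap of the nuclear kind. A CAGE tag on an uncapped RNA therefore marks a 5′ end that need not be a start of transcription. In the RefSeq table, atp6 and then a tRNA gene come before the first of the 2 rRNA genes. The other rRNA gene is followed by a run of tRNA genes and then cox1. Between the 2 rRNA genes lie 9 tRNA genes and the 2 protein-coding genes nad6 and cox3.

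The library totals ran from 14838220 to 19316457 tags, at which 3 tags correspond to 0.155 to 0.202 in counts-per-million units (CPM, tags scaled by the library total). The number of tags limits the precision of every share given here, and intervals on counts cover counting error only. Of 104026348 tags in all, 2027968 (1.95%) fell on the AP contig, which ranked 21 by tags among the 330 scaffolds and contigs with any tag. By Pearson correlation, which the few highest positions dominate, control replicate 2 and disruptant replicate 1 stood apart from the other 4 libraries. Their profiles over the 11839 plus-strand positions had a Pearson correlation of 0.996 with each other. Against the other 4 libraries the correlation of control replicate 2 was between 0.973 and 0.983, and that of disruptant replicate 1 between 0.967 and 0.977. Among the other 4 libraries it was between 0.997 and 0.999. Other measures grouped these 2 libraries only in part. Spearman's rho between them was 0.757, within the range of 0.749 to 0.784 over all pairs. Control replicate 2 shared 90.8% of its tags by 500 bp bin with disruptant replicate 1, but 93.2% with control replicate 1 and 91.9% with control replicate 3. For disruptant replicate 1 this 90.8% was the highest overlap, against 83.7% to 88.9% with the rest. Among the other 4 libraries the overlap was between 93.5% and 95.8%. These values are across positions or bins of single libraries and are given as a description. Chi-square per degree of freedom was lowest, at 2.39, for control replicates 1 and 2. For disruptant replicate 1 it was lowest with control replicate 2, at 3.71. No library was treated as a second copy of another.

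The AP contig took a share of every library that differed more between libraries of 1 genotype than between the means of the genotypes. Its share of the library was 2.14% in control replicate 1, 1.49% in control replicate 2 and 2.79% in control replicate 3. In the disruptant it was 1.08%, 1.84% and 2.38% in replicates 1, 2 and 3. The groups overlapped, with the lowest share in disruptant replicate 1 and the highest in control replicate 3. The means were 2.14% ± 0.648 (SD, n = 3) in the control and 1.77% ± 0.652 (SD, n = 3) in the disruptant, with a two-sided exact permutation p of 0.5, for which 0.1 is the smallest value that 3 against 3 libraries can give. After adjustment over the 7 measures compared in this way, the exact permutation p was 0.875. In bulk RNA, fewer cells with an RNA and less of it per cell cannot be told apart.

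After scaling by trimmed mean of M values, the contig's level was 22152 CPM ± 7832 (SD, n = 3) in the control and 17663 CPM ± 7731 (SD, n = 3) in the disruptant. The fitted log2 fold change of disruptant over control was -0.33 (SE 0.39) and did not pass the test (edgeR's quasi-likelihood test over 194 scaffolds and contigs, Benjamini-Hochberg adjusted p = 0.565). It was -0.03 without control replicate 3, -0.04 without disruptant replicate 1, -0.55 without control replicate 2 and -0.67 without disruptant replicate 3. In the same test 22.2% of scaffolds and contigs were called. The plus strand alone gave the same estimate of -0.33 (SE 0.39), with an edgeR adjusted p of 0.558, in a test that called 22.3% of the 323 scaffold strands. The minus strand had too few tags to enter this test.

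**Figure D1:**
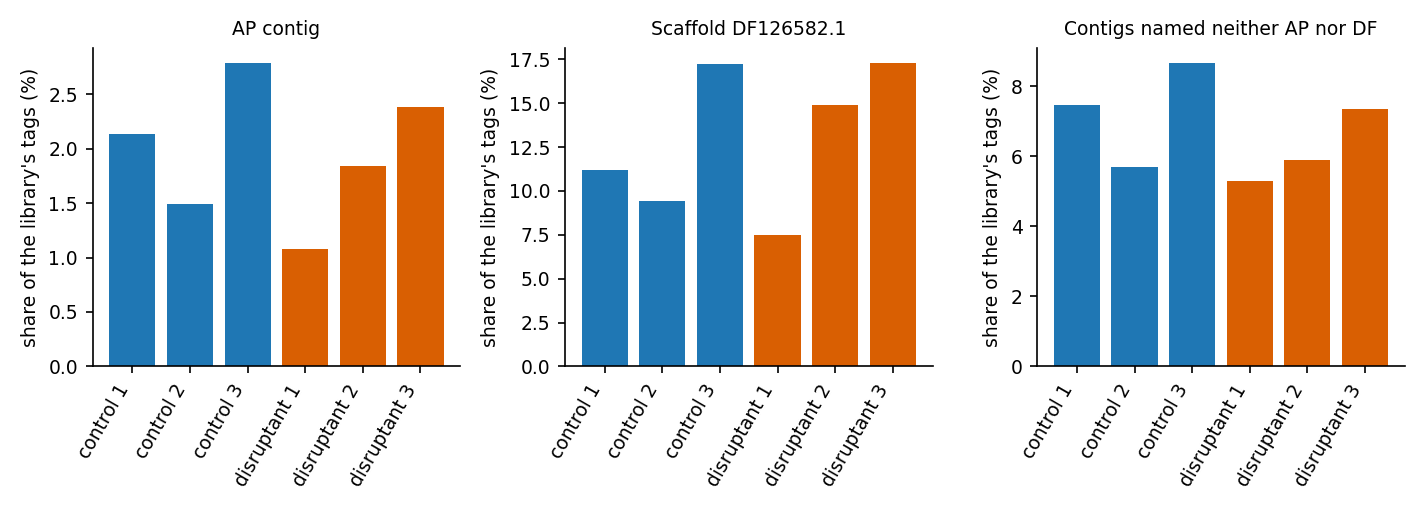
Bars give the share of each library's tags (%, axes from 0) on the AP contig, on scaffold DF126582.1 and on the contigs named neither AP nor DF, with 1 bar per library in the same order of libraries in each panel. The AP contig's bars run from 1.08% to 2.79%, and disruptant replicate 1 has the lowest bar in each panel.

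The libraries with a high AP share were largely those with a high share on other sequences that hold many tags. Scaffold DF126582.1 held 11.2%, 9.42% and 17.2% of the control libraries and 7.49%, 14.9% and 17.3% of the disruptant libraries. The contigs named neither AP nor DF together held 7.46%, 5.68% and 8.66% of the control libraries and 5.28%, 5.88% and 7.35% of the disruptant libraries. Across the 6 libraries the AP share had a Pearson r of 0.956 with the share of these contigs (exact permutation p = 0.00556, adjusted 0.0222 over 4 relations) and a Spearman rho of 0.943 (exact permutation p = 0.0167, adjusted 0.0667). Without the 2 libraries farthest from the median, control replicate 3 and disruptant replicate 1, r was 0.91. With the share of DF126582.1, Pearson's r was 0.88 (exact permutation p = 0.025, adjusted 0.05) and Spearman's rho 0.886 (exact permutation p = 0.0333, adjusted 0.0667). Without disruptant replicates 1 and 3, r was 0.78. With the library total, r was -0.0953 (exact permutation p = 0.84) and rho -0.0857 (exact permutation p = 0.919). The 4 relations were chosen after the shares had been seen, all shares of 1 library have the same denominator, and the 6 libraries include both genotypes. The part that RNA quality or the library preparation plays in these shares was not tested.

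Nearly all AP tags lay on the plus strand. Of the contig's 2027968 tags, 2027931 were on the plus strand and 37 (0.00182%) on the minus strand. The minus strand had 5, 1 and 14 tags in control replicates 1, 2 and 3 and 5, 4 and 8 tags in disruptant replicates 1, 2 and 3. In control replicate 2 this was 0.000346% of the contig's tags (exact 95% binomial interval 8.77e-06% to 0.00193%), the lowest of the 6 libraries. In control replicate 3 it was 0.00278% (exact 95% binomial interval 0.00152% to 0.00467%), the highest. The mean was 0.00145% ± 0.00123 (SD, n = 3) in the control and 0.00211% ± 0.000605 (SD, n = 3) in the disruptant, a difference smaller than the spread between replicates (two-sided exact permutation p = 0.5).

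The minus-strand tags were scattered. Of the 34 minus-strand positions, 31 had 1 tag in all and 3 had 2 tags, at positions 2642, 5333 and 27239. Each of the 34 positions had its tags in 1 library only. The contig also listed 1247 minus-strand positions at 0 in every library, against 8330 such positions on the plus strand. Why a position without tags is listed is not stated in the sources used here.

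Among the 100 scaffolds and contigs with at least 10000 tags, the AP contig had the 8th lowest share on its less used strand, and the median of that share was 34.0%. DF126582.1, ranked 7th with 0.00172%, was also read from its plus strand. The 6 contigs with a lower share had all or nearly all of their tags on the minus strand. The minus-strand share was 0.00178% ± 0.000941 (SD over 6 libraries) on the AP contig and 0.00194% ± 0.00109 on DF126582.1, and was higher on the AP contig in 3 of 6 libraries (two-sided exact sign-flip permutation p = 0.812, adjusted 0.812 over 8 comparisons). On the contigs named neither AP nor DF the minus-strand share was 97.3% ± 0.837, higher than on the AP contig in 6 of 6 libraries (exact sign-flip permutation p = 0.0312, the smallest that 6 pairs allow, adjusted 0.0357). Which strand of a record is called plus is a convention of that record, so the p against these contigs adds nothing.

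Position 13454 of the plus strand was the leading position of the contig in each of the 6 libraries. It received 83482, 47816 and 104697 tags in control replicates 1, 2 and 3 and 23763, 61825 and 89251 tags in disruptant replicates 1, 2 and 3. As a share of the contig's tags this was 20.3%, 16.6% and 20.8% in the control and 12.7%, 22.6% and 24.5% in the disruptant. As a share of the library it was 0.435%, 0.248% and 0.580% in the control and 0.137%, 0.417% and 0.583% in the disruptant. The groups overlapped on both scales, and the lowest shares were those of control replicate 2 and disruptant replicate 1. The mean share of the contig's tags was 19.2% ± 2.32 (SD, n = 3) in the control and 19.9% ± 6.35 (SD, n = 3) in the disruptant (two-sided exact permutation p = 0.9, adjusted 1).

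Position 9052 came next in each of the 6 libraries. It received 32026, 29033 and 40313 tags in the control and 14654, 20502 and 30351 tags in the disruptant. Its share of the contig's tags was 7.80%, 10.1% and 8.01% in the control and 7.81%, 7.51% and 8.32% in the disruptant, so that it varied less between libraries than the share of position 13454. The two-sided exact permutation p was 0.6. The next 3 positions by pooled tags lay close to these, with 44559 tags (2.20% of the contig's tags) at 13452, 40197 (1.98%) at 9053 and 37176 (1.83%) at 13453. Control replicate 2 and disruptant replicate 1 were low at all 3 positions near 13454, and control replicate 2 was the highest library at both positions near 9052.

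**Figure D2:**
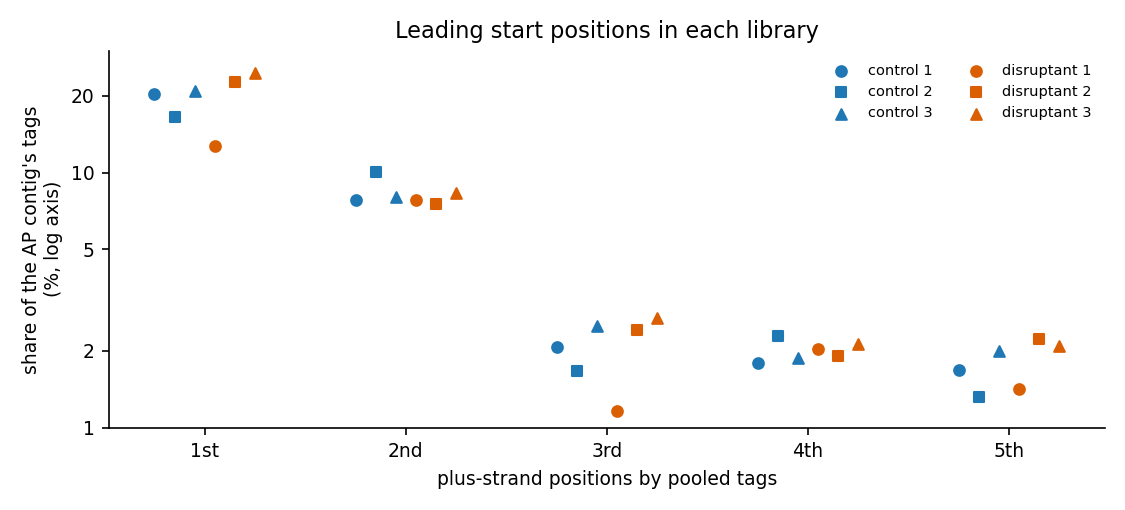
Each point is the share of the AP contig's tags (%, log axis) that 1 library had at 1 of the 5 plus-strand positions with the most pooled tags, in order of pooled tags; colour marks the genotype and shape the replicate number. At the 1st position the shares run from 12.7% to 24.5% with disruptant replicate 1 lowest, and at the 2nd they run from 7.51% to 10.1%.

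The AP share of the library and the share of AP tags at the leading position had a Pearson r of 0.779 across the 6 libraries (exact permutation p = 0.0694, adjusted 0.0926) and a Spearman rho of 0.714 (exact permutation p = 0.136, adjusted 0.181). Without control replicate 2 and disruptant replicate 1, r was -0.182, so the relation rested on those 2 libraries.

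A few positions held most tags and many held 1 or 2. The 10 positions with the most pooled tags held 40.7% of the contig's tags, the first 100 held 62.4% and the first 1000 held 88.2%. Counted from the top, 27 positions reached 50% of the tags, 1180 reached 90% and 4698 reached 99%. There were 2987 positions with 1 tag and 1398 with 2 tags over all libraries. Positions with a tag in all 6 libraries numbered 3943 and held 98.3% of the contig's tags, whereas 3680 positions had tags in 1 library only.

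The concentration did not separate the genotypes. The 10 leading positions of each library held 39.5%, 38.0% and 42.2% of its AP tags in the control and 29.6%, 44.4% and 45.9% in the disruptant (two-sided exact permutation p = 1). The inverse Simpson number, which is the number of equally used positions that would give the same concentration, was 19.97, 24.8 and 18.9 in the control and 41.0, 16.5 and 14.3 in the disruptant (two-sided exact permutation p = 1). Disruptant replicate 1 was the most even library and disruptant replicate 3 the least even. At a common depth of 187637 tags, the libraries were expected to show 5868, 6099 and 5946 distinct positions in the control and 5999, 5406 and 5580 in the disruptant (two-sided exact permutation p = 0.3, adjusted 0.875).

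The AP contig used many more positions than DF126582.1 at this depth. The expected number of distinct positions was 5816 ± 267 (SD over 6 libraries) on the AP contig, 756 ± 38.9 on DF126582.1 and 2595 ± 185 on the contigs named neither AP nor DF. The AP contig was higher in 6 of 6 libraries in both comparisons (exact sign-flip permutation p = 0.0312, adjusted 0.0357). DF126582.1 had 1566 positions with a tag over all libraries, against 11873 on the AP contig. The outcome against DF126582.1 was thus fixed by the positions available, and its p adds nothing. Sequence lengths were not compared. Against the median of 99 scaffolds, at the depth of 1178 tags that all allow, the AP contig had 469 against 412 distinct positions. It was higher in 6 of 6 libraries (exact sign-flip permutation p = 0.0312, adjusted 0.0417 over 4 comparisons). This gap cannot be set beside those at the larger depth. Its 10 leading positions held 39.9% ± 5.85 of its tags, less than the 65.0% ± 8.88 on DF126582.1 in 6 of 6 libraries and more than the 25.0% ± 2.13 on the other contigs in 6 of 6 libraries (both adjusted to 0.0357 in the exact sign-flip permutation test). With position 13454 taken from the AP contig and nothing taken from the other contigs, which lowers the AP value by construction, the latter difference was 1.46 percentage points (exact sign-flip permutation, adjusted p = 0.214). The other contigs were counted as 1 pool, and pooling can lower the share of the top 10 positions. For single scaffolds, the median of 99 was 33.8% ± 0.684 (SD over 6 libraries). The AP contig was above that median in 5 of 6 libraries (exact sign-flip permutation p = 0.0625, adjusted 0.0625 over 4 comparisons).

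The plus-strand tags covered the contig from end to end at very unequal levels. Positions with a plus-strand tag made up 38.0% of the 31186 bp. All 63 consecutive bins of 500 bp held plus-strand tags, from 29 tags in bins 3001 to 3500 and 12501 to 13000 to 557118 tags in bin 13001 to 13500. Of these bins, 44 held under 0.1% of the contig's tags each and 1.06% together, whereas the top 5 held 80.7% and the top 10 held 95.8%. The top 5 bins were 13001 to 13500 with 27.5% of the contig's tags, 9001 to 9500 with 19.9%, 9501 to 10000 with 12.2%, 13501 to 14000 with 11.2% and 14001 to 14500 with 9.97%. This order is that of the pooled tags, to which libraries with more AP tags add more. In control replicate 2 and disruptant replicate 1 the bin 9001 to 9500 came first, with 23.3% against 22.3% and 20.6% against 17.5%. In disruptant replicate 1 the bin 14001 to 14500, with 13.7%, also passed 9501 to 10000, with 12.2%. The bin 13501 to 14000 passed 9501 to 10000 in control replicate 1, with 11.6% against 11.3%. It did so too in disruptant replicate 3, with 11.6% against 9.91%. The longest stretch without a plus-strand tag was 456 bp, from 851 to 1306, followed by 141 bp from 12299 to 12439 and 117 bp from 29505 to 29621.

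**Figure D3:**
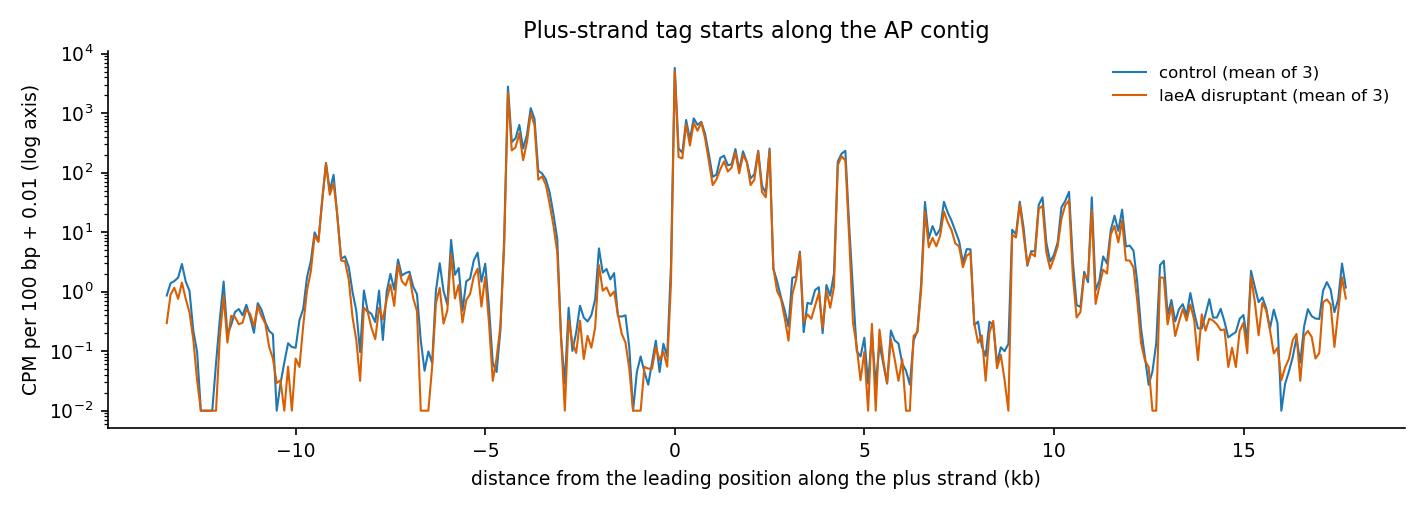
Lines give the mean CPM per 100 bp of the plus strand, plus 0.01 (log axis), of the 3 control and the 3 disruptant libraries, against the distance from the leading position (kb). The main rises and falls of the profile lie at the same places in both genotypes, with the highest levels at the leading position and at the peak upstream of it.

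Positions were next joined into tag clusters. A cluster joined positions of at least 0.1 CPM that lay within 20 bp of each other on 1 strand, with all tags in its span, and was kept at 1 CPM or more in the pooled libraries. The table gave 21824 clusters, of which 63 were on the AP contig, all on the plus strand. They held 99.2% of its tags. The share in clusters was 99.2%, 99.04% and 99.1% in the control and 99.2%, 99.4% and 99.3% in the disruptant. The disruptant libraries were all above the control libraries, though by little (99.1% ± 0.0932 against 99.3% ± 0.0777, SD, n = 3 each; two-sided exact permutation p = 0.1, adjusted 0.7). Clusters were defined on the pooled libraries, without regard to genotype. Cluster levels given below are CPM of the tags in all clusters tested, after scaling by trimmed mean of M values. They cannot be set beside the contig's level, which is scaled to all tags of the library. The profile figures use library totals without that scaling.

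A cluster of 1092 bp, from 13450 to 14541, held 993752 tags, 49.0% of the contig's total. Its level was 11418, 6802 and 15863 CPM in control replicates 1, 2 and 3 and 4399, 9789 and 14234 CPM in disruptant replicates 1, 2 and 3. The groups overlapped over most of their range. The log2 fold change was -0.26 (SE 0.45; edgeR's quasi-likelihood test, Benjamini-Hochberg adjusted p = 0.763), and it turned to 0.06 without control replicate 3 and to 0.08 without disruptant replicate 1. Tags started at 1088 of its positions (99.6%), and 41.3% of its tags were at position 13454, near its upstream end.

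A cluster of 1320 bp, from 9027 to 10346, held 663742 tags (32.7%). Its level was 7167, 5837 and 10656 CPM in the control and 3506, 6146 and 7945 CPM in the disruptant. These groups also overlapped, with disruptant replicate 1 lowest and control replicate 3 highest. The estimate was -0.43 on the log2 scale (SE 0.35), with an edgeR adjusted p of 0.493. It was -0.15 without control replicate 3, -0.16 without disruptant replicate 1 and -0.70 without disruptant replicate 3. Its leading position, 9052, held 25.1% of its tags, and 97.7% of its positions had a tag.

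A cluster of 1200 bp, from 14776 to 15975, held 185400 tags (9.14%). Its level was 2063, 1389 and 2790 CPM in the control and 1233, 1707 and 2357 CPM in the disruptant, again with overlap. The estimate was -0.24 on the log2 scale (SE 0.32), with an edgeR adjusted p of 0.691, and it turned to 0.04 without control replicate 3. This cluster had no dominant start, since its leading position, 15613, held 7.56% of its tags. The span from the 10th to the 90th percentile of its tags was 1107 bp.

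These 3 clusters held 90.9% of the contig's tags and were the longest in the table, as none of the 21761 clusters elsewhere was over 1000 bp. Clusters whose span from the 10th to the 90th percentile was over 500 bp numbered 3 on the AP contig and 4 elsewhere. The median AP cluster was not long, with 37 bp against 40 bp elsewhere. Tags filled AP clusters more densely, with a tag at a median of 89.1% of a cluster's positions against 66.7% elsewhere. The clusters compared were not matched for tag level, on which width and this percentage can depend. No test was made of these cluster shapes, since clusters of 1 contig share their source.

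Smaller clusters differed in shape. The cluster from 17792 to 18040 held 57623 tags (2.84%), with 23.8% of them at 17793, and its level was 662 CPM ± 127 (SD, n = 3) in the control and 511 CPM ± 120 in the disruptant (a log2 change of -0.37 with SE 0.24, and an edgeR adjusted p of 0.38). The cluster from 4121 to 4465 held 31368 tags (1.55%), at 348 CPM ± 84.8 in the control and 296 CPM ± 64.8 in the disruptant. The cluster from 14575 to 14754 held 23292 tags (1.15%). It differed by -0.69 on the log2 scale (SE 0.34), with an edgeR adjusted p of 0.258. The estimate was -0.36 without control replicate 3 and -1.01 without disruptant replicate 3. The last 3 of the 10 clusters with the most tags were those from 22993 to 23203 with 6470 tags, from 20500 to 20632 with 3997 and from 22523 to 22626 with 3481. Their log2 estimates were -0.42 (SE 0.24), -0.60 (SE 0.37) and -0.23 (SE 0.26), none of them called. Without control replicate 3 they were -0.26, -0.31 and -0.04, and without disruptant replicate 3 they were -0.56, -1.01 and -0.46. The sharp clusters named here were of low level. The 38 bp cluster from 23632 to 23669, with 1989 tags, had 66.8% of them at 23653. The 5 bp cluster from 8947 to 8951 had 84.2% of its 564 tags at 8947, and the 2 bp cluster from 11408 to 11409 had 93.8% of its 371 tags at 11409.

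The share of the contig's tags in a cluster moved between libraries in different ways. The cluster from 23691 to 23864, with 7697 tags, took 0.531%, 0.488% and 0.210% of AP tags in the control and 0.866%, 0.208% and 0.235% in the disruptant. The cluster from 17792 took 3.29%, 3.32% and 2.23% in the control and 4.62%, 2.15% and 2.42% in the disruptant. Both clusters were highest in disruptant replicate 1. The cluster from 13450 took 49.7%, 43.6% and 49.6% in the control and 42.4%, 51.3% and 53.4% in the disruptant, with disruptant replicate 1 lowest.

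Clusters less than 1000 bp apart formed 10 blocks, a grouping described after the clusters had been seen. The block from 13381 to 16750 had 7 clusters and 59.3% of the contig's tags, and the block from 8947 to 10346 had 2 clusters and 32.8%. The block at 17792 to 18040 was a single cluster. Of the others, the block from 3897 to 4727 had 8 clusters (1.75%), that from 22355 to 26392 had 26 clusters (1.71%) and that from 20058 to 21239 had 13 clusters (0.711%). The remaining 4 blocks, at 6168, 7214, 11408 and 31098, each held under 0.1% of the contig's tags.

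The 2 leading clusters began abruptly and stayed densely tagged downstream. Upstream of position 13454, the window from 500 to 101 bp away held 56 tags over all libraries, or 0.14 tags per bp, and the window from 100 to 11 bp away held 7.70 tags per bp. The 10 bp just upstream held 111140 tags (5.48% of the contig's tags). Downstream, the density was 269 tags per bp from 11 to 100 bp, 402 from 101 to 500 bp and 514 from 501 to 1000 bp. Nearly every downstream position was hit, with tags at 399 of 400 positions from 101 to 500 bp and at 499 of 500 from 501 to 1000 bp. The downstream window from 501 to 1000 bp held 12.7% of all AP tags, and its share was between 11.3% and 16.7% in the 6 libraries, highest in disruptant replicate 1.

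Around position 9052 the edge was less sharp. The window from 500 to 101 bp upstream held 1.57 tags per bp, that from 100 to 11 bp upstream held 160 and the 10 bp just upstream held 957. The 10 bp just downstream held 4820 tags per bp. Density was then 399 tags per bp from 11 to 100 bp, 365 from 101 to 500 bp and 467 from 501 to 1000 bp downstream, with tags at 397 of 400 and 496 of 500 positions in the last 2 windows. The window from 501 to 1000 bp held 11.5% of the contig's tags.

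**Figure D4:**
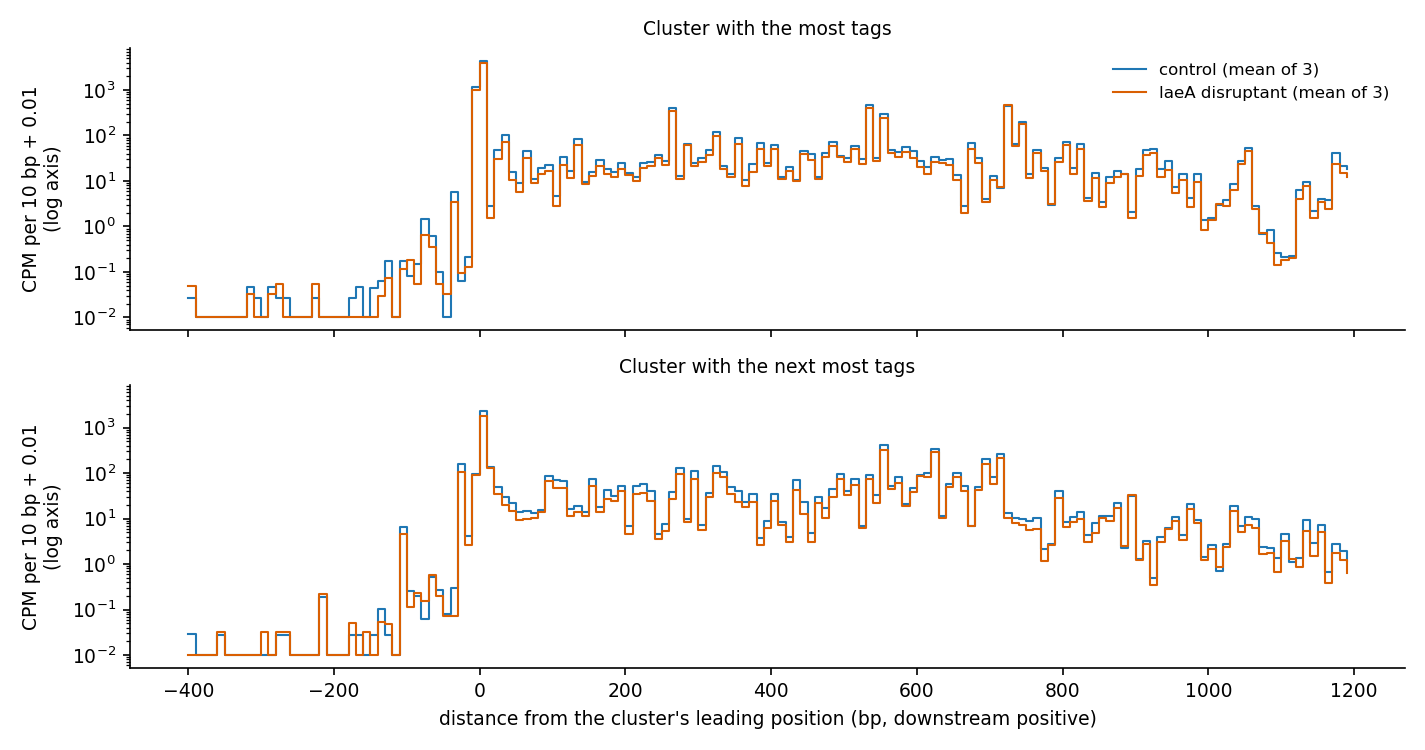
Lines give the mean CPM per 10 bp, plus 0.01 (log axis), of the 3 control and the 3 disruptant libraries around the leading position of the 2 clusters with the most tags, against distance (bp, downstream positive). Both clusters rise steeply at their leading position and stay densely tagged for about 1000 bp downstream, with peaks at the same distances in both genotypes.

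No AP cluster changed between the genotypes by the test. Of the 63 clusters, 0 had an adjusted p under 0.05 in edgeR's quasi-likelihood test, which called 8.11% of the 21803 clusters tested, and 0 were called by DESeq2. At an unadjusted p under 0.05 there were 6 in edgeR, where 24.2% of all clusters tested were under it, and 6 in DESeq2. In edgeR all 6 had estimates below 0, and each of these clusters held between 113 and 696 tags. The lowest adjusted p belonged to the cluster from 7214 to 7221, with 42, 21 and 27 tags in the control and 4, 5 and 15 in the disruptant (log2 fold change -1.67 with SE 0.58, and an edgeR adjusted p of 0.119). Of the 63 estimates, 58 were below 0, with a median log2 fold change of -0.49 and a range from -1.67 to 0.53, whereas 50.47% of all clusters tested were below 0, with a median of -0.01. Clusters of the contig share its level in each library, so these estimates are not independent. Their median was -0.11 without control replicate 3 and -0.22 without disruptant replicate 1, but -0.85 without disruptant replicate 3.

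**Figure D5:**
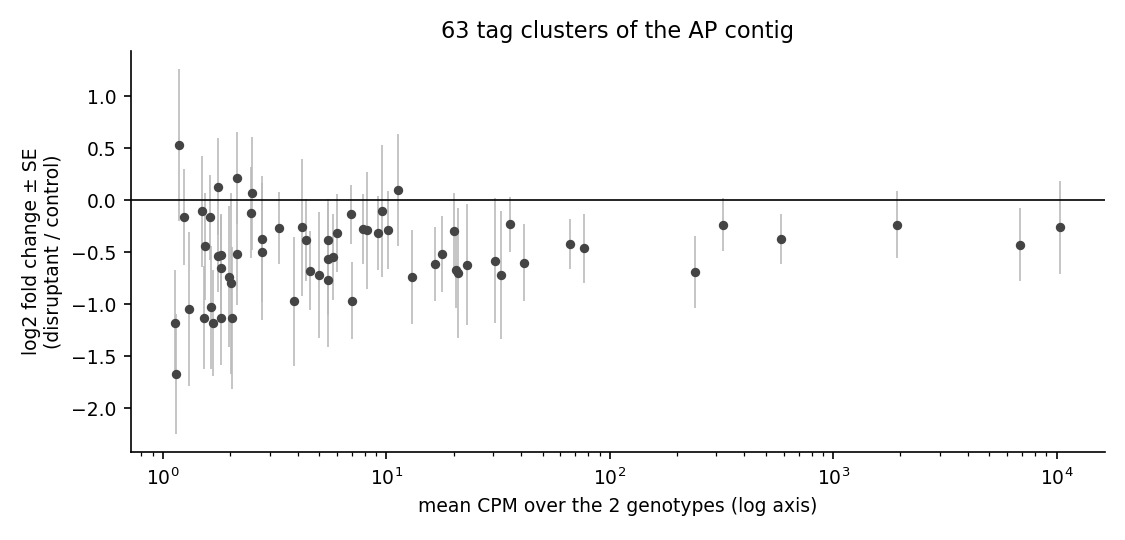
Each point is 1 of the 63 tag clusters of the AP contig, with its mean CPM over both genotypes (log axis) and its log2 fold change of disruptant over control; bars are standard errors of the edgeR fit. Most points lie below 0, 58 of 63, and the spread is wider at low levels, from -1.67 to 0.53, than among the clusters with the most tags.

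Against the rest of the contig, the clusters showed no called shift either. In edgeR's test of each cluster against the rest of its scaffold (diffSpliceDGE), 0 of the 63 were called, where 13.2% of the 21766 clusters tested were called, and 0 had an unadjusted p under 0.05, where 24.6% of all clusters did. The median coefficient was -0.12, with 40 of 63 below 0, whereas the median over all clusters tested was 0.02. These coefficients are on the natural-log scale, so they cannot be set beside the log2 values. With each scaffold's tag totals as offset, a test added after the data were seen, edgeR called 0 of the 63 and 7.92% of all clusters, and 3 of the 63 had an unadjusted p under 0.05, against 24.8% of all clusters. The median log2 fold change of the 63 was then -0.09, with 37 below 0 and 26 above. The totals include the cluster tested, which draws the estimate of a cluster with a large share of the contig's tags toward 0. The lowest edgeR adjusted p was 0.091, for the cluster from 7214 to 7221. At the level of single positions with at least 1 CPM, also added after the data were seen, edgeR called 0 of 1675 AP positions and 3.05% of the 81245 positions tested. An unadjusted p under 0.05 was found at 103 of the AP positions, against 14.5% of all positions tested, and the lowest edgeR adjusted p was 0.0681.

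By share of the strand's tags, 12 of the contig's 63 bins (19.05%) had all 3 disruptant libraries below all 3 control libraries, where 12.4% of 44309 bins of the whole table did. No AP bin had the disruptant libraries all above the control, where 15.8% of all bins did. The 12 bins held between 0.00143% and 0.0558% of the contig's tags each and 0.330% together. Their summed share was 0.341%, 0.418% and 0.403% in the control and 0.240%, 0.207% and 0.283% in the disruptant, as the choice of bins fixes. An example with more tags is the bin from 8001 to 8500, with 0.0645% ± 0.00637 (SD, n = 3) of the AP tags in the control and 0.0421% ± 0.00895 in the disruptant. All 12 bins lie outside the 3 long clusters.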

How the data were processed

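The deposited table holds raw tag counts per position and strand, made by the authors with no scaling, in 8582186 rows and 6 libraries. FastQC, BWA and bedtools are named in the submitters' processing notes, without versions or roles. Mapping settings, the handling of multiply mapped reads and the genome build are not given in the sources used here. Table positions start at 0, and 1 was added to each. Library identity came from the column names and group from the labels.

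The members, measures and lists were chosen with earlier results of these data known. Tests over all clusters, scaffolds or positions used edgeR 4.0.16 in R 4.3.3 (trimmed mean of M values, filterByExpr, quasi-likelihood F test, Benjamini-Hochberg adjustment, threshold 0.05), with DESeq2 1.42.0 as an alternative. Fits used all 6 libraries and no covariate. Single values were compared by exact permutation over libraries in Python 3.11.15, with scipy 1.17.1. Comparisons with other scaffolds flipped signs within libraries. Expected distinct positions were computed by analytic rarefaction. The text names the 5 positions with the most tags on a strand, the 10 clusters and the 5 bins with the most tags, and any cluster called; the sharp clusters, those named for their p, the minus-strand ties and the bin given as an example were chosen after their values were seen. On simulated counts with known changes, the test against the rest of the scaffold called too many clusters, and the offset test did not. The simulated clusters varied independently, without a level shared within a scaffold, and only scaffolds with many clusters were scored. How either test behaves where clusters move together was not tested.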

Additional observations from a re-analysis of the deposited data

How the results depend on the processing

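With 3 libraries a group, and levels of the contig between 9772 and 30244 CPM, small changes were not detectable. The contig's log2 fold change stayed below 0 and uncalled under every alternative run, between -0.67 and -0.03 with 1 library left out and -0.37 with the replicate block (edgeR adjusted p = 0.398). No cluster was called in the level test or against the rest of the scaffold under any alternative, the replicate block included. Clusters at an unadjusted p under 0.05 numbered 1 to 16 with 1 library left out and 11 with the replicate block. Same-numbered libraries deviated from their group means with correlations of 0.452, -0.415 and -0.0757 over all clusters, and of 0.383, -0.29 and 0.422 over AP clusters, so the numbers were not taken to pair libraries. 1 single position was called without disruptant replicate 2. Of the 10 clusters with the most tags, 2 reversed under some alternative, and none was called: the cluster from 13450 ranged from -0.68 to 0.08 with 1 library left out (0.06 without control replicate 3, 0.080 without disruptant replicate 1), and that from 14776 from -0.49 to 0.04 (0.038 without control replicate 3). The minus strand was filtered out of the main test, and without the filter its log2 fold change was -0.06 (SE 0.76; edgeR adjusted p = 0.97).

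Of the 7 uncalled differences of disruptant minus control, those in the library share, the share in clusters and the distinct positions kept their sign under every alternative run, and the others changed it under some. Without positions of 1 tag, the minus-strand share differed by -8.23e-05 percentage points. Without the leading position, the leading share differed by -0.766 and the top 10 share by -0.189 points. With 1 library left out, the leading share differed by -1.58 to 4.32 points, the top 10 share by -2.87 to 5.27 points and the inverse Simpson number by -5.85 to 7.51.

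For the AP contig minus DF126582.1, the minus-strand share differed by 0.000279 points with the leading position taken from the AP contig alone and by -0.000581 to 0.000142 with 1 library left out. With 5 libraries the exact sign-flip permutation test cannot pass 0.05, its smallest p being 0.0625. The distinct positions then differed by 5016 to 5148, the top 10 share by -26.7 to -24.0 points and the inverse Simpson number by 13.8 to 18.6. Against the other contigs these were 3150 to 3361, 14.1 to 16.4 points (1.46 with the leading position taken from the AP contig alone) and -77.2 to -73.1, and the minus-strand share differed by -97.6 to -97.2 points. Against the median of 99 scaffolds with at least 10000 tags in place of DF126582.1, the minus-strand share differed by -54.6 points, the distinct positions by 56.7 (at a depth of 1178 tags), the top 10 share by 6.13 points and the inverse Simpson number by -28.2.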
